A study of Mus musculus with 3 samples.

Results

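The NRF2 pathway and its antioxidant enzymes were examined as 10 genes of the 17583 listed for ribosome-associated RNA of heart endothelial cells. The genes are Nfe2l2, Keap1, Hmox1, Nqo1, Gclm, Txnrd1, Sod1, Cat, Gpx1 and Gpx4, and each was found by its symbol on 1 row of the deposited table. They encode NRF2, its inhibitor KEAP1, enzymes that the pathway induces and enzymes that remove reactive oxygen. The rule names the genes and uses no measured value, although it was written with earlier results of these data known. RNA was taken from 3 EC-RiboTag mice (Cdh5-CreERT2;Rpl22tm1.1Psam). In these mice, an inducible Cre recombinase driven by the Cdh5 promoter switches the ribosomal protein gene Rpl22 to a hemagglutinin-tagged version in endothelial cells, so that their ribosomes can be immunoprecipitated from heart homogenate. Recombination was induced with 1 mg tamoxifen on 5 consecutive days, and the study's methods give an age of 10 to 12 weeks for mice undergoing coronary ligation. According to the labels, hearts were taken 7 days after ligation, whereas the RiboTag methods mention no infarction, and neither says from which zone this RNA came. The titles (hrtRz) hold the letters that the study uses elsewhere for the remote zone (RZ), the myocardium away from the infarct, but do not spell them out. All 3 libraries belong to 1 condition, and no input or control library was analysed here, so levels could be described but no difference between conditions could be tested.

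NRF2, encoded by Nfe2l2, is a transcription factor that switches on genes of antioxidant defence. In unstressed cells KEAP1 holds NRF2 in the cytoplasm and passes it to a ubiquitin ligase for degradation. Oxidants and electrophiles modify cysteines of KEAP1, and NRF2 then accumulates, enters the nucleus and binds antioxidant response elements together with small MAF proteins. NRF2 is thus regulated largely at the level of the protein, which RNA on ribosomes does not show. Endothelial cells meet reactive oxygen from their own oxidases and from reperfused tissue, and use superoxide dismutases, catalase, peroxidases and the glutathione and thioredoxin systems to remove it.

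The values are normalized counts rounded to whole numbers, and they summed to between 7149102 and 7268785 per library. The pattern of rounding places 1 read at between 0.961 and 1.06 normalized counts, so a normalized count is close to a read. The libraries differed in sex-linked genes. Ddx3y, on chromosome Y, had 1080, 3 and 1 normalized counts in mice 1, 2 and 3, and Xist had 4, 618 and 869. A difference of mouse 1 from the other mice and a difference between sexes therefore cannot be told apart. The sample labels call the libraries biological replicates, and the spread given here is that between these 3 libraries.

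All 3 libraries carried RNA of all 10 genes. Mean normalized counts ran from 178 for Nqo1 to 1068 for Nfe2l2, a 5.99-fold range, and 9 of the 10 genes had a mean of at least 200. By count, without regard to length, both regulators of the pathway were among the higher members, whereas per base of canonical transcript they lay mid-order. The 3 mice gave nearly the same level for most genes. The plot of normalized counts by mouse shows the 10 genes side by side.

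**Figure D1:**
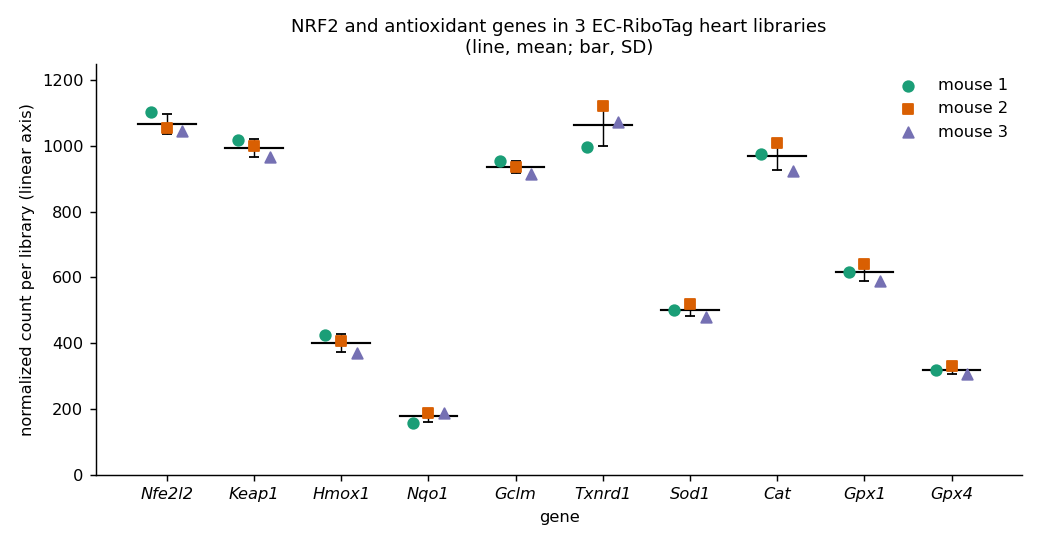
Normalized count (linear axis) of each of the 10 genes in mice 1, 2 and 3 (circle, square and triangle), with the mean (line) and SD (bar). Nfe2l2, Txnrd1, Keap1, Cat and Gclm lay near 1000, and Nqo1 was the lowest gene in each mouse.

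Nfe2l2 (ENSMUSG00000015839), at chr2:75505857-75534985 on the minus strand of GRCm39, reached 1103, 1055 and 1046 normalized counts in mice 1 to 3, or 1068 ± 30.6 (SD, n = 3). Keap1 (ENSMUSG00000003308), at chr9:21141026-21150657 on the minus strand, had 1018, 1000 and 965, or 994 ± 27.0 (SD, n = 3). Of all genes, ordered by mean, Nfe2l2 took place 1746 and Keap1 place 2047. Both were highest in mouse 1 and lowest in mouse 3, and within each mouse the values of the repressor and of its target lay close together.

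Counts of different genes can be set against each other only per length, because a longer transcript gives more reads. Per base of the Ensembl canonical transcript, Keap1 had 0.311 ± 0.008 and Nfe2l2 0.297 ± 0.009 normalized counts (SD, n = 3). The log2 ratio of Keap1 to Nfe2l2 per base was 0.06 ± 0.02 (SD, n = 3), positive in each of the 3 mice (exact sign-flip permutation test, two-sided p = 0.25, adjusted p = 0.3 over 6 ratios). A p of 0.25 is the smallest that 3 mice allow, so none of the 6 ratios could reach 0.05. The sign of this small ratio depended on the length used, since it was -0.16 per base of all annotated exons and -0.10 without division by length.

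Hmox1 and Nqo1 are the classical inducible targets of NRF2. Hmox1 (ENSMUSG00000005413), at chr8:75820249-75827217 on the plus strand, encodes heme oxygenase 1, which breaks down heme to biliverdin, carbon monoxide and iron. It had normalized counts of 424, 408 and 370, or 401 ± 27.7 (SD, n = 3), with the lowest value in mouse 3. Nqo1 (ENSMUSG00000003849), at chr8:108114857-108129838 on the minus strand, encodes a quinone reductase and had 159, 187 and 189, or 178 ± 16.8 (SD, n = 3). Nqo1 was the only one of the 10 genes with its highest value in mouse 3 and the only one with a mean under 200. Per base of canonical transcript, Hmox1 had 0.254 ± 0.018 and Nqo1 0.067 ± 0.006 (SD, n = 3). Hmox1 thus stood above 79.1% of the 14395 genes of known length whose mean was 10 or more, and Nqo1 above 37.1% of them.

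The constitutive isoenzyme of heme oxygenase, Hmox2, had a higher count than Hmox1 but a longer canonical transcript. Its normalized counts were 649, 686 and 619 in mice 1, 2 and 3. Per base, Hmox1 exceeded Hmox2 in each of the 3 mice, and the log2 ratio averaged 1.44 ± 0.08 (SD over 3 mice). The exact sign-flip permutation test gave a two-sided p = 0.25 (adjusted p = 0.3). This direction rested on the division by transcript length, since the log2 ratio was -0.70 without it and -0.58 per base of coding sequence, a length added after the values had been seen.

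Gclm (ENSMUSG00000028124), at chr3:122039206-122064381 on the plus strand, encodes the regulatory subunit of glutamate-cysteine ligase, the enzyme of the rate-limiting step of glutathione synthesis. It had normalized counts of 954, 936 and 916, or 935 ± 19.0 (SD, n = 3), the narrowest relative spread of the 10 genes. Gclc, the catalytic subunit, had 479, 550 and 531. Per base of canonical transcript the subunits did not differ beyond their spread, and the log2 ratio of Gclm to Gclc averaged -0.03 ± 0.13 (SD over 3 mice). An exact sign-flip permutation test gave a two-sided p = 0.75 (adjusted p = 0.75). In single mice the log2 ratio was 0.11, -0.12 and -0.10. The canonical transcript of Gclm has 6349 bases, of which 822 are coding, and per coding base the log2 ratio was 2.07, so the order of the subunits depended on the length used.

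Txnrd1 (ENSMUSG00000020250), at chr10:82669785-82733546 on the plus strand, encodes the cytosolic thioredoxin reductase, which uses NADPH to reduce thioredoxin. It had normalized counts of 997, 1122 and 1074, or 1064 ± 63.1 (SD, n = 3), and was lowest in mouse 1. The mitochondrial reductase Txnrd2 was lower in each mouse, with 211, 185 and 175. The log2 ratio of Txnrd1 to Txnrd2 per base averaged 1.70 ± 0.21 (SD over 3 mice), or 3.26-fold. The exact sign-flip permutation test gave a two-sided p = 0.25 (adjusted p = 0.3). Txnrd1 stayed higher under each length tried.

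Sod1, Cat, Gpx1 and Gpx4 encode the enzymes that act on superoxide and peroxides directly. Sod1 (ENSMUSG00000022982), at chr16:90017642-90023217 on the plus strand, encodes the cytosolic copper and zinc superoxide dismutase and had 502, 519 and 481 normalized counts, or 501 ± 19.0 (SD, n = 3). Cat (ENSMUSG00000027187), at chr2:103284194-103315505 on the minus strand, encodes the peroxisomal catalase and had 976, 1010 and 925, or 970.3 ± 42.8 (SD, n = 3). Both were highest in mouse 2 and lowest in mouse 3. Gpx1 (ENSMUSG00000063856), at chr9:108216102-108217542 on the plus strand, encodes the main cytosolic glutathione peroxidase and had 616, 642 and 588, or 615 ± 27.0 (SD, n = 3). Gpx4 (ENSMUSG00000075706), at chr10:79883000-79892273 on the plus strand, encodes the peroxidase that reduces lipid hydroperoxides in membranes and had 319, 330 and 307, or 319 ± 11.5 (SD, n = 3). Gpx1 and Gpx4 shared the order of the mice seen in Sod1 and Cat.

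GPX1, GPX4 and TXNRD1 are selenoproteins. Their mRNAs carry an in-frame UGA codon, elsewhere a stop signal, which the ribosome reads as selenocysteine with the help of a structure at the 3′ end of the mRNA. The codon is shown because these are RNAs caught on ribosomes, and the selenocysteine it encodes is the catalytic residue of all 3 enzymes. The coding sequences below were read from GRCm39, on the plus strand with introns removed, along the Ensembl canonical transcript, with the selenocysteine codon in capitals. In Gpx1 it is codon 47 of 201 (chr9:108216650-108216652), in Gpx4 codon 73 of 197 (chr10:79890571-79890573), and in Txnrd1 codon 498 of 499 (chr10:82731871-82731873), so that in Txnrd1 a single codon follows before the stop. Each coding sequence holds no other in-frame stop codon.
Gpx1: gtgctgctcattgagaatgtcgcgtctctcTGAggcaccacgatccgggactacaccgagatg
Gpx4: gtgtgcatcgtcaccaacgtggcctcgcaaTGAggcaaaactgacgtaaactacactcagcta
Txnrd1: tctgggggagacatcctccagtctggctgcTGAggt

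Aligned on this codon, the windows of Gpx1 and Gpx4 were identical at 35 of 63 bases. Reads of 72 bases separate such related genes. No window of read length of the canonical transcripts of Gpx1, Gpx4, Txnrd1 or 6 other members had an exact copy elsewhere in GRCm39, and in Gclm 12 of 6278 windows did. No exon of the 10 canonical transcripts overlapped an exon of another gene on the same strand.

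Of the 10 genes, Gpx1 had the highest level per base of canonical transcript, 0.574 ± 0.025 (SD, n = 3), above 97.6% of genes. Gpx4 had 0.332 ± 0.012 (SD, n = 3), above 87.7% of genes. Gpx1 exceeded Gpx4 per base in each mouse, and the log2 ratio of Gpx4 to Gpx1 was -0.79 ± 0.01 (SD, n = 3; exact sign-flip permutation test, two-sided p = 0.25, adjusted p = 0.3). Its values in single mice, -0.79, -0.80 and -0.78, made it the steadiest of the 6 ratios, and it was negative under each length tried.

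Sod1 was low per base of its canonical transcript, 0.094 ± 0.004 (SD, n = 3), above 46.0% of genes. This transcript has 5315 bases, of which 462 are coding. Per coding base Sod1 had 1.08 ± 0.04 (SD, n = 3), above 90.5% of genes, so its place among genes depended on the length assigned to it. Sod2, the mitochondrial superoxide dismutase, had 1033, 929 and 869 normalized counts. The log2 ratio of Sod1 to Sod2 per base was -0.74 ± 0.11 (SD, n = 3), with Sod2 higher in each mouse (exact sign-flip permutation test, two-sided p = 0.25, adjusted p = 0.3). It was -0.32 per base of all annotated exons and -0.38 per coding base.

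Per base of canonical transcript the order from high to low was Gpx1, Cat, Gpx4, Txnrd1, Keap1, Nfe2l2, Hmox1, Gclm, Sod1 and Nqo1. Of 9 pairs of neighbours, the gap exceeded both SDs in 7. The exceptions were Gpx4 with Txnrd1 and Txnrd1 with Keap1. Of the 10 genes, 8 lay above the median of all genes, which was 0.106 per base, where 50.0% of genes lie above it by definition, and Sod1 and Nqo1 lay below. Per base of all annotated exons all 10 lay above the median of 0.056. Whether the annotated transcript ends are those used in these cells was not tested.

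**Figure D2:**
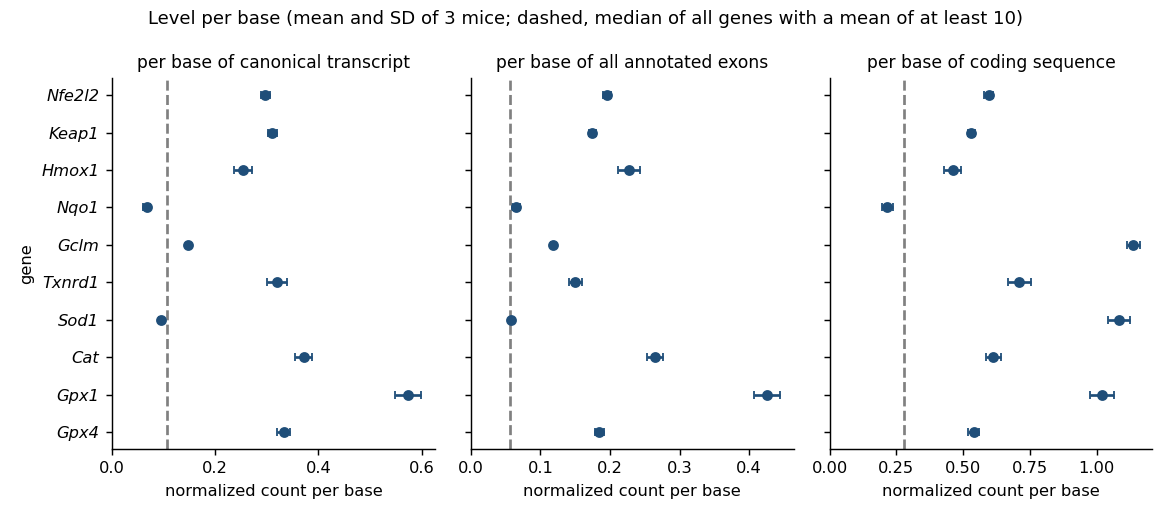
Normalized count per base of the 10 genes (mean and SD of 3 mice) with 3 choices of length: the canonical transcript, all annotated exons and the coding sequence. Gpx1 was highest with the transcript and exon lengths, Gclm and Sod1 moved to the top per coding base, and Nqo1 lay below the dashed median of all genes per base of canonical transcript and of coding sequence.

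The authors removed duplicate reads. Single reads that start at the same place then count once, so the range of levels is compressed where reads are dense. Per base of canonical transcript, 99% of genes with a mean of 10 or more lay below 0.686, and so did all 10 members. Per coding base Gclm, Sod1 and Gpx1 had more than 1 normalized count, with 1.14, 1.08 and 1.02. How far duplicate removal lowered the members was not tested.

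The 10 genes differed little between mice. Their coefficients of variation (CV, the SD as a share of the mean) ran from 2.03% for Gclm to 9.41% for Nqo1, and 7 of the 10 were under 5%. Of the 9 members whose mean was at least 200, 0 had a CV over 20%, where 8.00% of all 9358 such genes did. For only 9 genes, a count of 0 lies near that share. Their median CV was 3.80%, against 7.37% over all such genes, which were not matched to the members for level. The CV expected from counting falls as counts rise. Nqo1, at 178, fell under this minimum. The expected CV from counting alone was 7.48% for Nqo1, 5.60% for Gpx4 and 3.06% for Nfe2l2. The measured CV was below that of counting in 5 of the 10 genes (Nfe2l2, Keap1, Gclm, Sod1 and Gpx4). Txnrd1 exceeded counting most, with a measured CV of 5.92% and an expected one of 3.06%. An SD above that of counting was found in 4 of the 9 members and in 81.6% of all genes at these levels. These shares were not matched for level or for reads per base. The part of duplicate removal in the spread was not tested. With 3 values an SD is itself imprecise.

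**Figure D3:**
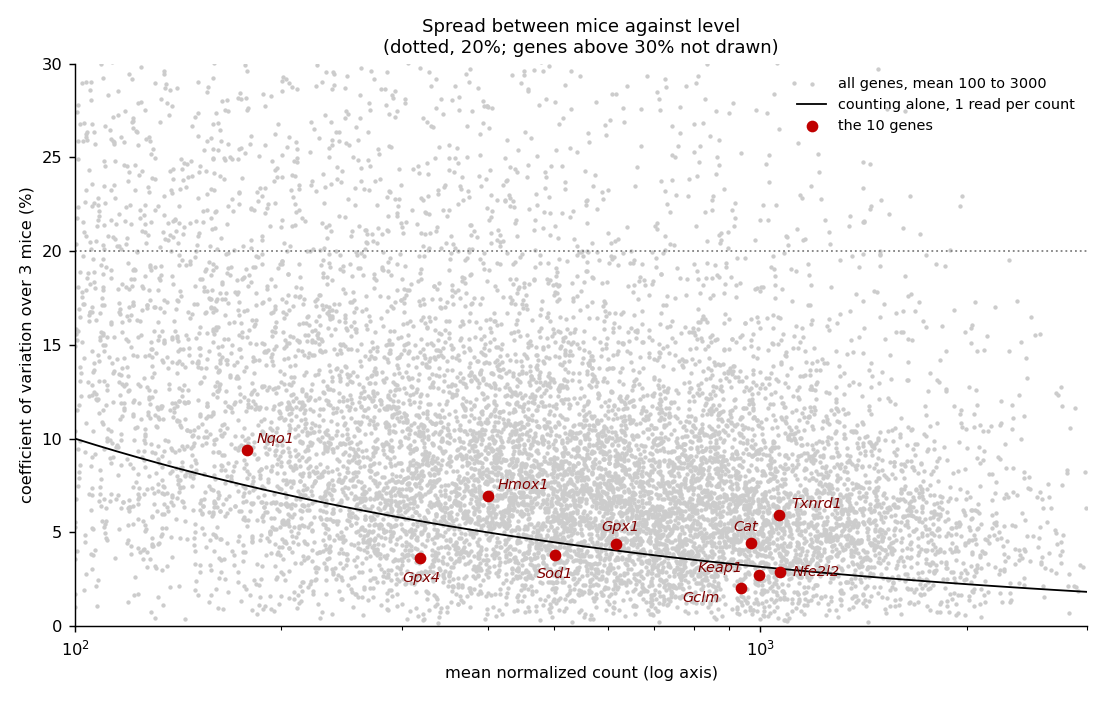
CV over the 3 mice (%) against mean normalized count (log axis) for all genes with a mean of 100 to 3000 and a CV under 30% (grey) and the 10 genes (red). The curve is the CV expected from counting, and 5 of the 10 genes lie under it. They range from 2.03% to 9.41%, all below the dotted line at 20%.

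Within this narrow spread the mice took similar orders. Mouse 3 was lowest in 8 of the 9 members at 200 or more, against 39.0% of all such genes. It was also lowest in 35 of 56 wider redox genes at these levels, which are described further on. Alone, it was lowest in 7 of 12 endothelial, 6 of 10 cardiomyocyte and 1 of 6 mural markers. It was so in 0 of the 6 fibroblast, 7 leukocyte and 4 erythroid markers. The low values of mouse 3 were thus not particular to the members, but the markers of some cell types did not share them. Among the 9 members the exception was Txnrd1, and in Nqo1, below the minimum, mouse 3 was highest. Sod1, Cat, Gpx1 and Gpx4 had the order mouse 2, mouse 1, mouse 3, and Nfe2l2, Keap1, Hmox1 and Gclm the order mouse 1, mouse 2, mouse 3. These orders were found in 16.0% and 22.7% of all genes at these levels. The former was the order of 5 of the 12 endothelial, 1 of the 6 mural and 1 of the 7 leukocyte markers (C1qa, tied in mice 1 and 3). It was that of 0 of the 10 cardiomyocyte, 6 fibroblast and 4 erythroid markers. The latter was that of 2 of the 12 endothelial, 6 of the 10 cardiomyocyte and 1 of the 4 erythroid markers (Hba-a2, tied in mice 2 and 3). It was that of 0 of the 6 fibroblast, 7 leukocyte and 6 mural markers. The part of these cells in the orders was not tested. The differences were small. In Nfe2l2, Keap1, Gclm, Sod1 and Gpx4 the measured CV was below that of counting, so the order of the mice in these genes is not resolved from counting. The log2 ratio of mouse 3 to the mean of mice 1 and 2 was between -0.17 for Hmox1 and 0.13 for Nqo1.

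Transcript length moved with this difference. At mean levels of 200 or more, the median log2 ratio of mouse 3 to the mean of mice 1 and 2 was -0.13 for canonical transcripts of up to 1000 bases (304 genes) and -0.12 for 1001 to 2000 bases (1402 genes). It was -0.05 for 2001 to 4000 bases (3505 genes), 0.05 for 4001 to 8000 bases (3448 genes) and 0.15 for longer transcripts (697 genes). Gpx4 and Gpx1, with transcripts of 959 and 1072 bases, had log2 ratios of -0.08 and -0.10, less negative than the median of their length class. Hmox1, with 1577 bases, had -0.17. Sod1 and Gclm, whose canonical transcripts exceed 4000 bases, had -0.09 and -0.04, whereas the median of their class was positive. The part of length in the levels of the members was not tested.

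**Figure D4:**
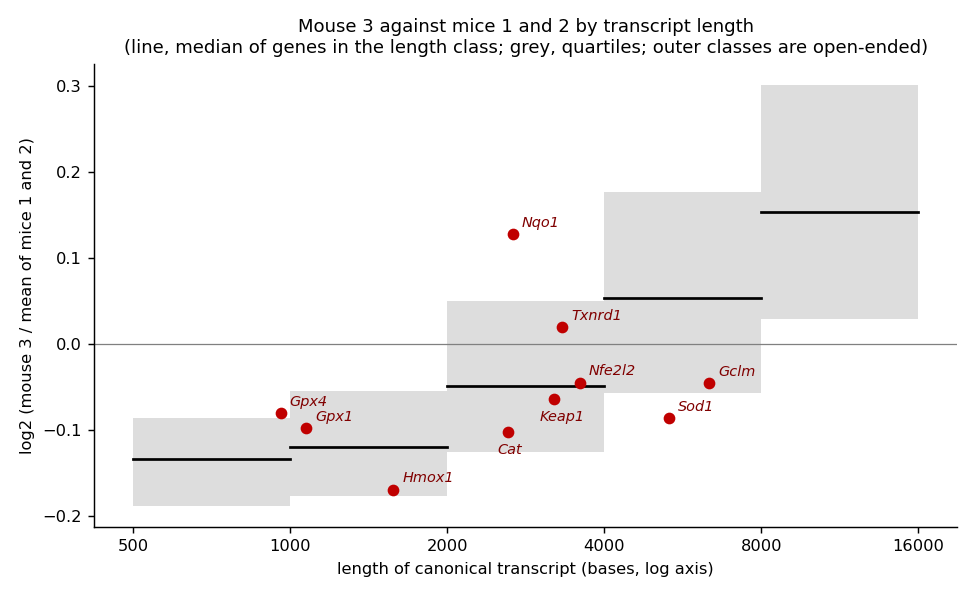
Log2 ratio of mouse 3 to the mean of mice 1 and 2 against canonical transcript length (bases, log axis), with the median (line) and quartiles (grey) of genes in 5 length classes and the 10 genes in red. The class medians rise from -0.13 to 0.15 with length, and 8 of the 10 genes lie below 0.

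The immunoprecipitate also held RNA of other heart cells, and the 10 genes are used in most cell types. None of the markers named in the lists was at 0. The cardiomyocyte marker Ttn had the highest mean count of all genes, 8437, on a canonical transcript of 107543 bases. The 12 endothelial markers had a median of 0.711 per base and the 10 cardiomyocyte markers 0.565. The medians were 0.0914 for 6 fibroblast, 0.0418 for 6 mural, 0.0723 for 4 erythroid and 0.0285 for 7 leukocyte markers. The endothelial median lay above 0.686, the level that 99% of genes did not reach. Duplicate removal compresses such high levels, so these medians do not give the shares of the cell types. Over the mice, the summed endothelial markers lay between 27917 and 29071 normalized counts, the cardiomyocyte markers between 20679 and 24237 and the leukocyte markers between 588 and 836. The summed 10 genes had 7068, 7209 and 6861 in mice 1, 2 and 3. In such bulk RNA, fewer cells of a type and less RNA per cell cannot be told apart, and the part of other cells in the 10 genes was not tested. Macrophages also express Hmox1, and their part in its level was not tested.

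Around the 10 genes, 68 further genes of redox control were placed in 9 lists, and 67 of them were in the table. Gpx2, an epithelial glutathione peroxidase, was not listed, and the table lists no gene whose highest value is under 4. Of the 66 whose mean was 10 or more, 50 lay above the median level per base of canonical transcript, where 50.0% of all genes do. Of the 56 whose mean was 200 or more, 1 had a CV over 20%, against 8.00% of all genes.

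The partners of NRF2 were present throughout. All 10 genes of this list lay above the median per base (9 of them with exonic length), from Btrc at 0.108 to Nfe2l1 at 0.528. Nfe2l1, a relative of NRF2 that controls proteasome genes, had 2427 ± 99.3 normalized counts (SD, n = 3). The KEAP1 ligase subunits Cul3 and Rbx1 had 1156 ± 33.5 and 683 ± 52.0. Sqstm1, the autophagy receptor p62 that can draw KEAP1 away from NRF2, had 1241 ± 60.5. Bach1, a repressor that competes for antioxidant response elements, had 921 ± 74.6, and the small MAF partners Mafg, Mafk and Maff had 1208 ± 61.6, 1188 ± 81.3 and 776 ± 60.1 (SD, n = 3 each).

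In the list of glutathione and NADPH supply, 8 of the 10 genes at a mean of 10 or more lay above the median per base. Slc7a11, the cystine importer that limits glutathione supply in many cultured cells, was nearly absent, with normalized counts of 7, 8 and 5. Its partner chain Slc3a2, which also pairs with other transporters, had 762 ± 34.7. Gsr, which regenerates glutathione, had 768 ± 28.0. Taldo1 and Tkt of the pentose phosphate pathway had 0.480 and 0.241 per base, whereas G6pdx and Me1, both sources of NADPH, lay below the median at 0.053 and 0.048.

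The thioredoxin and peroxiredoxin list had 10 of 12 genes above the median. Txnip, which binds and inhibits thioredoxin, was the highest of all 67 genes per base, with 0.722 ± 0.035 (SD, n = 3), and had 2162, 1975 and 2007 normalized counts. Thioredoxin itself, Txn1, had 0.561 ± 0.030. The 6 peroxiredoxins ranged from 0.217 for Prdx1 to 0.461 for Prdx4, and each had a CV under 10%. Mouse 3 was lowest in 9 of the 11 genes with a mean of 200 or more, against 39.0% of all genes, a share not matched for length. Txn1, Prdx3, Prdx4 and Prdx5, among them, have canonical transcripts of 790 to 1580 bases, lengths at which mouse 3 was mostly lower. Srxn1, with 7203 bases, was also lowest in mouse 3. The part of length was not tested.

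Of 6 other enzymes of superoxide and peroxide removal, 4 lay above the median. Gpx7 had 0.334, Gpx3 0.147 and Gpx8 0.080 per base. Ccs, the copper chaperone of SOD1, had 352, 318 and 286 normalized counts. In the heme and iron list 4 of 7 genes lay above the median. The ferritin chains Fth1 and Ftl1 had 0.663 and 0.255 per base, and the biliverdin reductases Blvra and Blvrb, which act on the product of heme oxygenase, had 0.253 and 0.246. Ferritin binds iron that heme oxygenase sets free. The iron exporter Slc40a1 was low, at 0.020 per base.

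Of the detoxification list, 6 of 8 genes lay above the median, led by Gstm1 at 0.471, a glutathione transferase. Nqo2, a relative of Nqo1, had 740, 719 and 697 normalized counts, above Nqo1 in each mouse, and 0.185 per base. The count of Gstp1 is uncertain, since 29.1% of its read-length windows match a second place exactly and such reads were removed. Of the 6 genes of selenoprotein synthesis, which the 3 selenoproteins above depend on, 4 lay above the median, or 2 with exonic length, with Trnau1ap at 0.484 and Secisbp2, which binds the recoding structure, at 0.133.

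Of the 4 sources of reactive oxygen, Xdh and Cyba lay above the median per base and Cybb and Nox4 below it. Xdh, xanthine dehydrogenase, had 2295, 1694 and 2093 normalized counts, and Cyba, the shared small subunit of NADPH oxidases, 497, 534 and 464. The catalytic subunit Cybb had 35, 34 and 51 and Nox4 had 37, 42 and 50. In the list on lipid peroxides 2 of 3 genes lay above the median. Acsl4, which supplies the lipids that GPX4 protects, was just below it at 0.102 per base, and Aifm2, which acts beside GPX4, had 0.112.

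**Figure D5:**
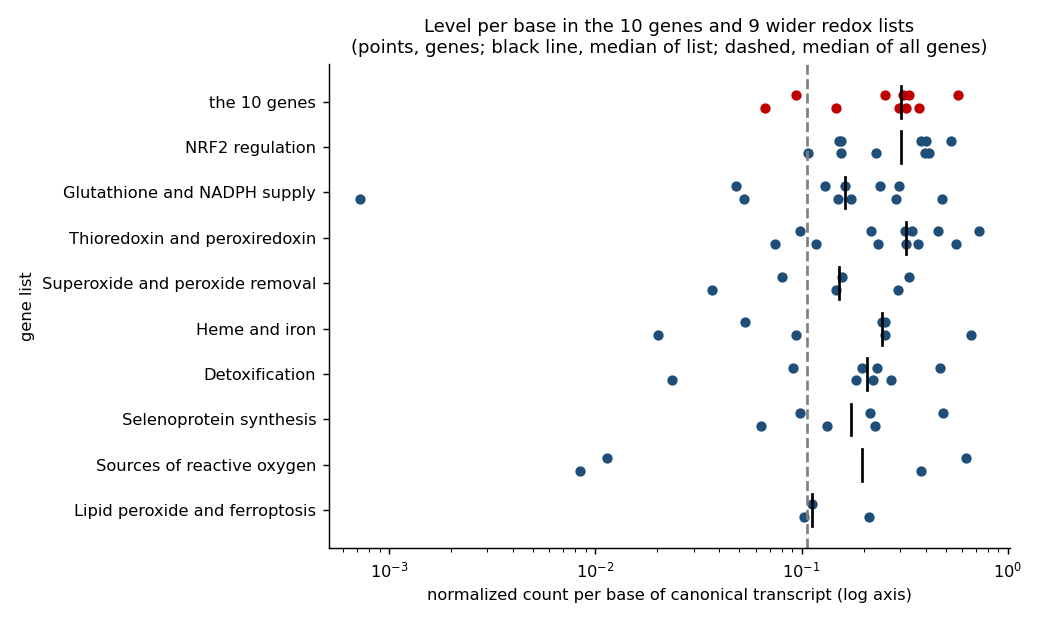
Normalized count per base of canonical transcript (log axis) for the 10 genes (red) and the genes of 9 wider redox lists (blue), with the median of each list (black line) and of all genes (dashed, 0.106). Slc7a11 is the isolated point at the left, and Txnip, at 0.722, is the point farthest right.

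The wide spreads lay outside the 10 genes, and the genes below were singled out after their values had been seen. Tfrc, the transferrin receptor, had 146, 353 and 286 normalized counts in mice 1, 2 and 3, a CV of 40.4%. This order of the mice was seen in 20.1% of all genes with means between 100 and 300. It was that of 2 of the 7 leukocyte markers (Ptprc and Cd68) and 2 of the 6 fibroblast markers (Col1a1 and Col1a2). It was also that of 1 of the 6 mural (Cspg4), 1 of the 12 endothelial and 1 of the 10 cardiomyocyte markers. It was that of 0 of the 4 erythroid markers, and most markers of each list took other orders. Mouse 1 alone was lowest, as in Tfrc, in 6 of the 7 leukocyte, 4 of the 6 fibroblast and 4 of the 6 mural markers. It was so in 4 of the 10 cardiomyocyte, 2 of the 12 endothelial and 1 of the 4 erythroid markers. The share of all genes with mouse 1 lowest was not counted. Sod3, the secreted superoxide dismutase, had 138, 100 and 195, a CV of 33.1%. At these means, 26.1% of genes had a CV over 20% and 11.8% had the order of Sod3, with mouse 3 highest and mouse 2 lowest. It was that of 2 of the 6 fibroblast markers (Dcn and Lum), while the other 4 took other orders. It was that of 0 of the 12 endothelial, 10 cardiomyocyte, 7 leukocyte, 6 mural and 4 erythroid markers. In another order, mouse 3 was also highest in the fibroblast markers Pdgfra and Tcf21 and the mural markers Pdgfrb, Acta2 and Myh11. The same held for the leukocyte markers Adgre1, Csf1r, Itgam and Lyz2, and for Tnnt2, Ttn, Ryr2, Cdh5 and Alas2. In the remaining markers mouse 3 was not highest. The part of other cells in Tfrc and Sod3 was not tested.

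The antioxidant response element, the site that NRF2 binds, has the core TGACNNNGC. This motif was searched on both strands in windows from 250 bases before to 50 bases after the gene start, taken from RefSeq (GRCm38.p6), of which 14 belong to 9 of the 10 genes. Hmox1 had no window, so the motif was not searched near its start. The motif was found in 1 window each of Nfe2l2, Gclm, Txnrd1 and Sod1, and in 12.4% of all 32851 windows. The matches are shown on the strand on which the motif reads 5′ to 3′, with the motif in capitals. In Nfe2l2 this is the minus strand at chr2:75704885-75704913, in Gclm the minus strand at chr3:122245413-122245441, in Txnrd1 the minus strand at chr10:82859104-82859132 and in Sod1 the minus strand at chr16:90220696-90220724.
Nfe2l2: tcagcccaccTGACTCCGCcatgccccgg
Gclm: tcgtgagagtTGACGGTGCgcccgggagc
Txnrd1: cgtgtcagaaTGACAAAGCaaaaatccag
Sod1: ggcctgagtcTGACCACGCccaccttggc

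None of the 4 stretches holds the AP-1 motif TGACTCA, which overlaps the core. The matches describe these letters and not binding, which was not measured, and the windows leave out more distant elements.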

How the data were processed

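Ribosome-associated RNA (250 ng per library) of 3 EC-RiboTag hearts was sequenced as single reads of 72 bases. The authors trimmed reads with Trimmomatic 0.39, used STAR 2.7.11a for alignment to the mm39 genome with annotation from Ensembl (release 109), removed duplicates (Picard 3.1.1) and multi-mapping, ribosomal and mitochondrial reads, counted exonic reads on the correct strand without those overlapping several genes (featureCounts 2.0.4), and normalized with DESeq2 1.36.0. The deposited values are this score, counts divided by a size factor and rounded to whole numbers, so no count model was fitted.

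Levels are means ± SD over mice. Implied depths, from whole numbers between 5 and 120 that rounding skips or doubles, were about 6753000 to 7564000 reads. Lengths are from GENCODE M39 (GRCm39), which holds 99.4% of the identifiers. Ratios used a pseudocount of 0.5 and an exact sign-flip permutation test with Benjamini-Hochberg adjustment. Read-length copies were searched with BLAST 2.17.0, and computations used Python 3.11.15, numpy 2.4.6 and pandas 2.3.3. Scripts were tested on simulated data. The members, lists and ratios were chosen with earlier results of these data known; all members and any gene of the lists could be named.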

Additional observations from a re-analysis of the deposited data

How the results depend on the processing

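No paired analysis was possible because the 3 libraries belong to a single group. Length was the choice that moved most. The log2 ratio of Keap1 to Nfe2l2 reversed to -0.16 with exonic length, -0.10 without division by length and -0.17 with coding length. That of Gclm to Gclc reversed to 0.50, 0.85 and 2.07 with the same choices, and it was -0.11, 0.00803 and -0.00173 without mouse 1, 2 and 3. That of Hmox1 to Hmox2 reversed to -0.70 without division and -0.58 with coding length. Coding length was added after seeing the data. The ratios of Gpx4 to Gpx1, Sod1 to Sod2 and Txnrd1 to Txnrd2 kept their sign under each alternative, and a pseudocount of 5 reversed none of the 6. No p could pass 0.05 with 3 mice.

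The count of members with a CV over 20% was 0 under each of the scalings, filters, thresholds and omissions tried, a CV over 10% included. The count of wider redox genes with a CV over 20% was 1, and it was 3 with a mean of at least 10, 4 without a filter and 7 at a CV over 10%. Omitting 1 mouse gave 1 or 2, the latter without mouse 3. Members above the median per base numbered between 7 and 10. The mean level of all 10 members moved by less than 1 SD under both scalings. Omitting 1 of 3 mice cannot move a mean by 1 SD, so the omissions were no check of this. The level per base moved by more than 1 SD in 9 members with exonic and in 10 with coding length. Counting sets an expected CV of 7.48% at the level of Nqo1, so differences of about this size between mice are not resolved from counting there. How large a difference could be detected was not tested.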
